A study of Mus musculus with 4 samples.

Results

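Pitx1 chromatin immunoprecipitation peaks (ChIP-seq) were examined over 1.2 Mb of chromosome 6 that holds the HoxA gene cluster and its flanks, in E11.5 hindlimb buds of ICR mice with the wild type genotype. Members are the peaks with their midpoint between 51800000 and 53000000 (mm9), 40 peaks in replicate 1 and 72 in replicate 2, or 112 of the 39780 peaks in both lists. The window was read in 3 segments. The Skap2 side runs up to 52080000, the cluster segment from there to 52230000, and the side of Evx1, Hibadh and Jazf1 from 52230000 on. A region is called replicated where peaks of the 2 lists overlap by at least 1 bp, and there were 31 such regions of 10274 in the genome.

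The series has 4 libraries, 2 made with a Pitx1 antibody and 2 of input DNA with none, all from the same strain, genotype, tissue and age. Each Pitx1 library carries material from 3 ChIPs, and no label ties a replicate to a litter of its own, so the spread between the replicates may be technical. Replicate 1 lists 14753 peaks and replicate 2 lists 25027. Reads were not analysed here, so library depth is unknown, and the input enters only through whatever the peak caller did with it. Whole limb buds hold several cell types, and a peak does not tell in which of them the DNA was bound.

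Pitx1 is a homeodomain transcription factor that distinguishes the hindlimb from the forelimb. Homeodomain proteins contact short DNA words with the core TAAT, and the bicoid-related class to which Pitx1 belongs favours TAATCC. The Hoxa genes encode homeodomain factors that pattern the body axis and, through the members at the Evx1 end, the limb. Hoxa9 and Hoxa10 act mainly in the limb segment nearest the body, Hoxa11 in the middle segment and Hoxa13 in the hand and foot. Enhancers that serve these limb genes are known on the Evx1 side of the cluster. RefSeq (GRCm38.p6) was used for gene order and for the promoter sequences below, and not to place peaks. In it the order is Skap2, then the Hoxa genes, ending with Hoxa13, then Evx1, Hibadh, Tax1bp1 and Jazf1. Skap2 encodes an adaptor of Src-family kinases, Evx1 a homeodomain factor, Hibadh an enzyme of valine breakdown and Jazf1 a zinc finger protein. Gene positions in mm9 were not used here, so no peak is assigned to a gene, and the segments carry the gene names of the rule that set them.

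The promoters of the 4 Hoxa genes with limb roles are shown because the peak-rich cluster segment carries these genes. Whether a peak covers any of them was not tested. Each sequence is the 250 bases before the start on the minus strand, 5′ to 3′, from RefSeq (GRCm38.p6), with the homeodomain core TAAT or its reverse complement ATTA in capitals. For Hoxa10 the outermost of the listed starts was taken.
Hoxa9: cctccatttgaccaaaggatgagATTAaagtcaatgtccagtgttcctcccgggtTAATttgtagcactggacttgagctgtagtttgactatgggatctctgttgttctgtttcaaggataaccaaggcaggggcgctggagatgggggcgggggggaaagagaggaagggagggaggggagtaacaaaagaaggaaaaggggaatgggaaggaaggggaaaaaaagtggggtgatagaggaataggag
Hoxa10: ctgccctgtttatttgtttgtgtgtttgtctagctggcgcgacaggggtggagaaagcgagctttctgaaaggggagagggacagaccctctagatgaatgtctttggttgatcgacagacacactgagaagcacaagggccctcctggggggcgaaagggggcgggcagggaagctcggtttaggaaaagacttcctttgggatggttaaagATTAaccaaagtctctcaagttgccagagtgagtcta
Hoxa11: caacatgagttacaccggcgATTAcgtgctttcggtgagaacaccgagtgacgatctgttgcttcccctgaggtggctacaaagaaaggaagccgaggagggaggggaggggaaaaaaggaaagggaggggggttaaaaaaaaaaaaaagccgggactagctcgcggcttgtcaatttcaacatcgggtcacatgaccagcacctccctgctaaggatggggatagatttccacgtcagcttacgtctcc
Hoxa13: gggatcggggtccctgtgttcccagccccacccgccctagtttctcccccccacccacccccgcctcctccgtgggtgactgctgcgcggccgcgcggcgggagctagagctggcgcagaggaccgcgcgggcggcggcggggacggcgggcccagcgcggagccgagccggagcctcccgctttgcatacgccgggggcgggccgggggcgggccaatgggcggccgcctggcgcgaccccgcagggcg
The core occurs at 2 places before Hoxa9, at 1 before Hoxa10, at 1 before Hoxa11 and at 0 before Hoxa13. The Hoxa13 sequence stands apart in base composition, with 80.0% G and C against 49.6% for Hoxa9, 51.6% for Hoxa10 and 52.0% for Hoxa11. Of 10 promoters listed for 9 Hoxa genes, 8 hold TAAT or ATTA, against 54.9% of all 32851 promoters of this length. The longer word TAATCC, read on both strands (GGATTA), is in 0 of the 10, against 6.25% of all promoters. This describes the letters in these windows and says nothing of where Pitx1 bound. Sequence under the peaks was not analysed here.

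The HoxA window was dense in Pitx1 peaks in both libraries. Its 31 replicated regions correspond to 25.8 per Mb, against 4.10 per Mb over the rest of the autosomes, a ratio of 6.30 (95% exact interval 4.28 to 8.95). Replicate 1 alone gave a ratio of 5.66 (4.04 to 7.72) and replicate 2 alone 6.0 (4.70 to 7.56). Such intervals cover counting error only, and they are too narrow because peaks cluster. The autosomes were therefore also cut into 1987 tiles of 1200 kb outside the window. In these, 0.201% held as many replicated regions (4 tiles), 0.201% as many replicate 1 peaks (4 tiles) and 0.0503% as many replicate 2 peaks (1 tile). The density was not even across the window, as the map of peak scores shows.

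**Figure D1:**
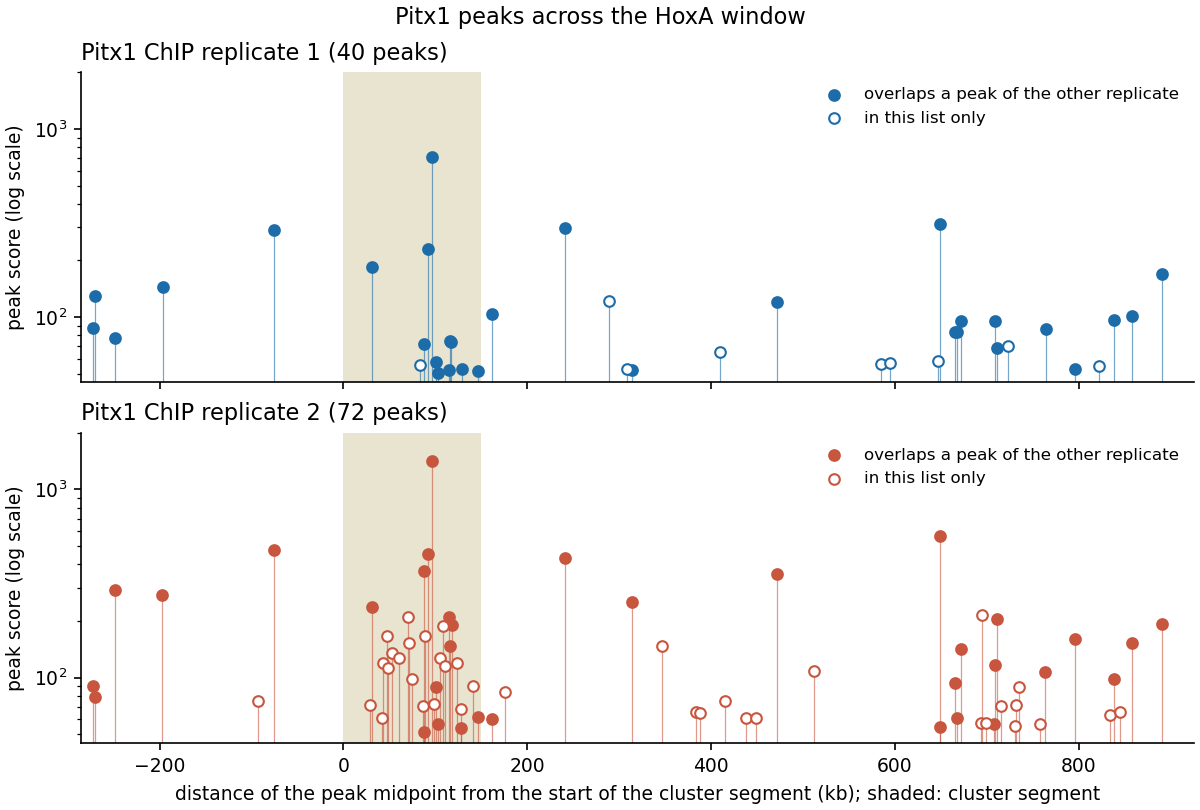
Each point is 1 peak of the HoxA window, with its score (log scale) against the distance of its midpoint from the start of the cluster segment in kb, for replicate 1 (40 peaks, upper panel) and replicate 2 (72 peaks, lower panel). Filled points overlap a peak of the other replicate, open points do not, and the shaded cluster segment holds 12 peaks in replicate 1 and 31 in replicate 2, including the best score of each panel.

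The segment of the Hoxa genes was the densest of the 3. In 150 kb it held 12 peaks in replicate 1, 31 in replicate 2 and 11 replicated regions, where the autosomal rate gives 0.883, 1.50 and 0.615. The ratios to the autosomal density were 13.6 (95% exact interval 7.02 to 23.7), 20.7 (14.0 to 29.4) and 17.9 (8.92 to 32.0). Of 15970 autosomal tiles of this length, 0.0438% (7 tiles) held as many replicate 1 peaks and 0.0188% (3 tiles) as many replicated regions. As many replicate 2 peaks were found in 0 tiles (0%), and the fullest of these tiles had 28. Peaks covered 8.84% of the cluster segment in replicate 1 and 18.7% in replicate 2, against 0.509% and 0.515% of the autosomes. Such coverage makes contacts of at least 1 bp by coincidence likelier in the cluster, which may raise its number of replicated regions. The cluster was also denser than its own flanks, with 3.85 times as many replicated regions per kb (1.67 to 8.43), 3.0 times as many replicate 1 peaks (1.39 to 6.09) and 5.29 times as many replicate 2 peaks (3.21 to 8.65). The ratio to the autosomes depends on how weak and split peaks are counted. Among the best 50% of each list by score it was 6.79 for replicate 1 (1.4 to 19.9, 3 peaks), 29.3 for replicate 2 (18.4 to 44.4, 22 peaks) and 9.11 for replicated regions (1.88 to 26.6, 3 regions). Merging peaks under 1 kb apart left 19 replicate 2 peaks and a ratio of 13.6 in that list. The fullest autosomal tile then had 23, and 0.00626% of tiles held as many as the cluster.

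**Figure D2:**
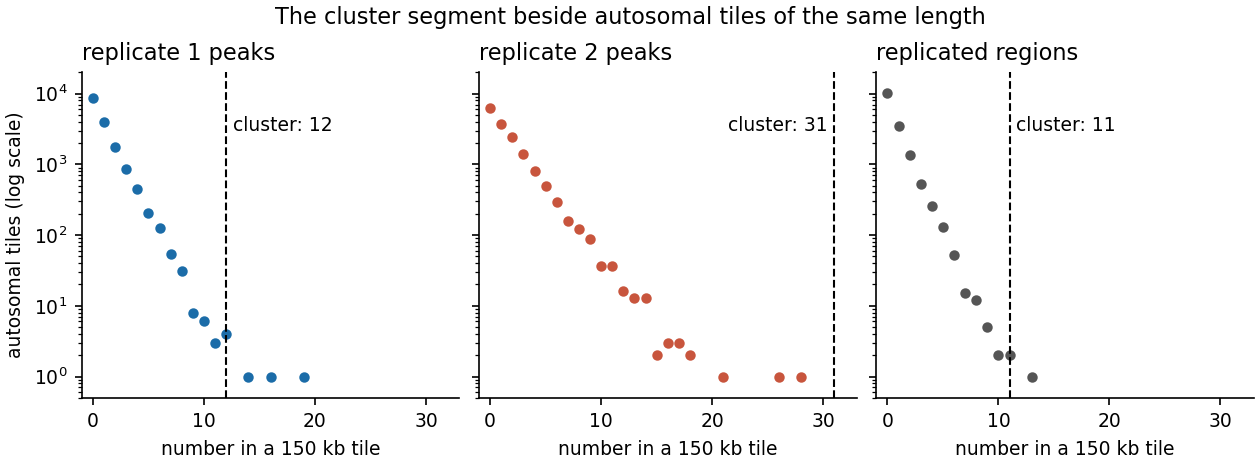
Points give the number of autosomal tiles of 150 kb (log scale) that hold a given number of replicate 1 peaks, replicate 2 peaks or replicated regions, and the dashed line marks the cluster segment. The cluster lies at 12, 31 and 11, where the fullest tiles have 19, 28 and 13.

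The strongest Pitx1 region of the whole window was inside the cluster, between 52175380 and 52177446. It lies 96.4 kb from the Skap2 end of the 150 kb segment. Its score was 711 in replicate 1 (rank 69 of 14753) and 1418 in replicate 2 (rank 50 of 25027), which is the best 0.468% and 0.200% of the lists. By summed ranks it stood at the 0.380 percentile of all replicated regions, where 0 is best. Its neighbour from 52171315 to 52173302 scored 230 (rank 1335) and 451 (rank 1093). Next to that, the region from 52166605 to 52168109 scored 72.2 in replicate 1 (rank 8820) and 367 in replicate 2 (rank 1592), where 2 peaks of replicate 2 meet 1 of replicate 1. Midpoints of these 3 neighbours are 4.95 and 4.10 kb apart, and they include the 3 best scores that replicate 2 has in the segment. Another strong region, from 52110735 to 52111644, lies apart from them toward Skap2. It scored 186 (rank 1990) and 237 (rank 3207), and the nearest other replicated region is 56.2 kb away.

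The other 7 replicated regions of the cluster lie between 52180576 and 52226964, toward Evx1, and none was in the better 50% of the replicate 1 list. The one from 52194285 to 52195072 scored 52.5 in replicate 1 (rank 13909) and 209 in replicate 2 (rank 3936), the widest gap in rank of the 7. Beside it, 52195333 to 52196426 scored 74.6 (rank 8420) and 147 (rank 6468), and 52196942 to 52198515 scored 74.0 (rank 8528) and 191 (rank 4467). Midpoints of these 3 are 1.20 and 1.85 kb apart, a second close group. The region from 52180576 to 52181399 scored 57.4 (rank 12327) and 89.4 (rank 12160). The last 3 scored near the lowest value of the replicate 1 list, which is 50. In replicate 2, where the lowest value is 50.01, they ranked at 76.7 to 91.8% of the list. They are 52181639 to 52183831 (50.7 and 56.4), 52208091 to 52209658 (52.9 and 53.7) and 52226265 to 52226964 (52.0 and 62.0). In the second of them the peaks of the 2 lists share only 139 bp, 13.2% of the replicate 1 peak, and in the first they share 596 bp (52.9%).

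**Figure D3:**
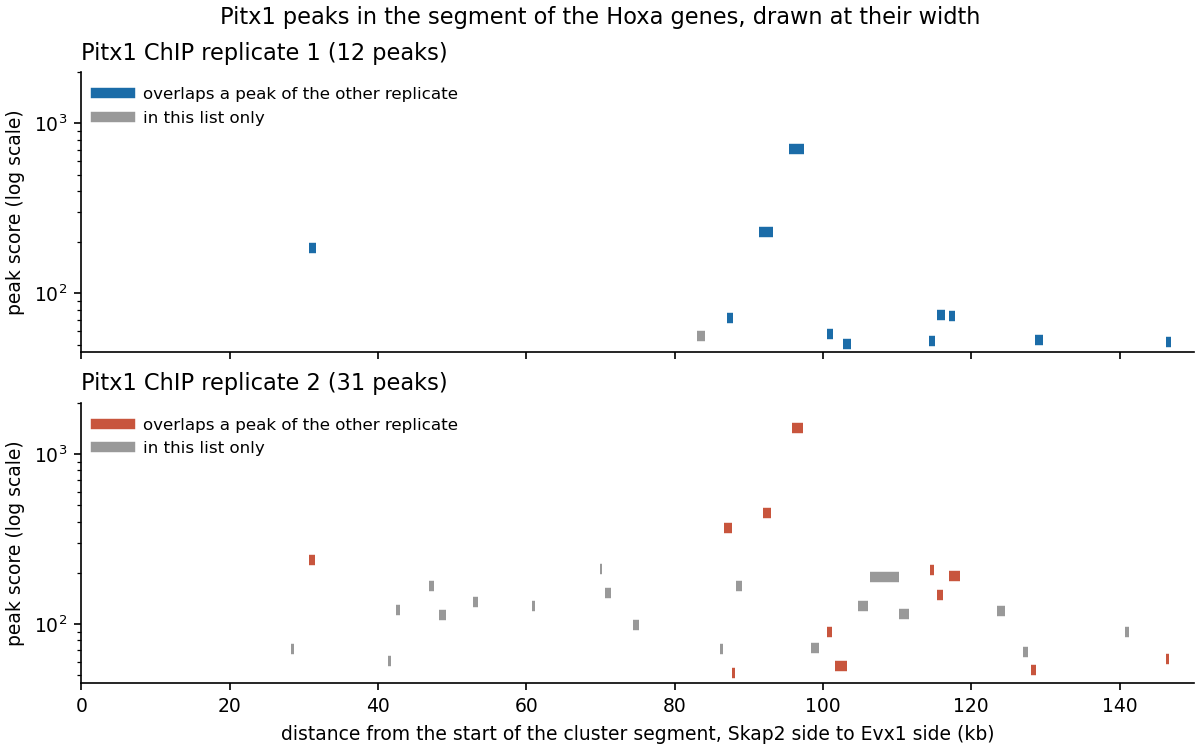
Each bar is 1 peak of the cluster segment, drawn at its own width and placed by distance from the Skap2 end of the segment in kb and by score (log scale), for replicate 1 (12 peaks) and replicate 2 (31 peaks). Coloured bars overlap a peak of the other replicate and grey bars do not, and replicate 2 has a run of grey bars between 40 and 80 kb where replicate 1 has no peak.

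Of the cluster's replicate 1 peaks, 11 of 12 met a replicate 2 peak (91.7%, 95% exact Clopper-Pearson interval 61.5 to 99.8%), against 69.8% over the autosomes. Of its replicate 2 peaks, 12 of 31 met a replicate 1 peak (38.7%, 21.9 to 57.8%), against 42.6%. Both autosomal shares fall within the intervals. Replicate 2 peaks covered 18.7% of the cluster against 0.515% of the autosomes, and replicate 1 peaks 8.84% against 0.509%. Peaks placed at random would thus touch by 1 bp more often in the cluster than on the autosomes. How many of the 11 contacts arose so was not tested, and the autosomal shares are not a like baseline. With midpoints within 250 bp in place of any overlap, the replicate 1 share was 58.3% (27.7 to 84.8%), against 64.9% on the autosomes. Among the best 50% of each list, 3 of 22 replicate 2 peaks of the cluster met a replicate 1 peak (13.6%, 2.91 to 34.9%). The autosomal share was 44.9%. Only 3 replicate 1 peaks of the cluster are in that best 50%, and all 3 were met. The low share was thus limited by their number and does not measure how well the 22 peaks repeat. The peak found only in replicate 1 was at 52163009 to 52164058 (score 55.9), 1.99 kb from the nearest replicate 2 peak. The 19 peaks found only in replicate 2 had a median score of 119, from 60.8 to 210, against 71.6 for such peaks on the autosomes. Of these 19, 14 were in the better 50% of the replicate 2 list (73.7%, 48.8 to 90.9%), against 31.7% of autosomal peaks found only in that replicate. Replicate 2 had 2.58 times as many peaks in the cluster as replicate 1 (1.29 to 5.52), and the ratio of their autosomal lists, 24647 to 14518 peaks, lies within that interval. Library depth is unknown, and its part in the difference was not tested.

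The longest stretch of the cluster without a replicate 1 peak ran over 51.4 kb, from 52111645 to 52163008, between the strong region near the Skap2 end and the main group. Replicate 2 had 9 peaks in it, with a median score of 127, and 8 of them were in the better 50% of its list. At the Skap2 end of this run are 52121385 to 52121717 (score 60.8), the weakest, and 52122484 to 52122994 (120). A close pair follows at 52126875 to 52127504 (167) and 52128273 to 52129111 (112). Single peaks stand at 52132854 to 52133444 (134) and 52140749 to 52141132 (127). The best of the run is 52149866 to 52150237 (210, rank 3904), only 372 bp wide. It is followed by 52150584 to 52151440 (152) and 52154346 to 52155254 (98.2). A further replicate 2 peak, 52108228 to 52108630 (71.3), lies on the other side of the strong region and is the first of the segment.

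The remaining 9 replicate 2 peaks without a partner lie among or beyond the replicated regions. At the main group, 52166046 to 52166545 (score 70.7) and 52168289 to 52169023 (166) flank a replicated region, and 52178352 to 52179435 (72.4) follows the strongest. A row of 3 lies between 52184700 and 52191665, where replicate 1 has no peak over 10.5 kb. Its middle peak, from 52186406 to 52190186 (score 189), is 3781 bp wide, and 3 peaks of the whole replicate 2 list are wider. On its sides are 52184700 to 52186084 (127) and 52190268 to 52191665 (115). Toward the Evx1 end, 52203495 to 52204517 scored 119, 52207006 to 52207660 scored 68.1 and 52220730 to 52221217 scored 89.8. Replicate 2 peaks were wide in this segment, with a median of 735 bp against 456 bp on the autosomes. For replicate 1 the medians were 947 and 797 bp. Widths above the autosomal median were not particular to the cluster. On the Skap2 and Evx1 sides the medians were 727 and 542 bp in replicate 2, and 1139 and 1031 bp in replicate 1.

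In every one of the 11 replicated regions of the cluster, the rank was better in replicate 2 than in replicate 1 as a percent of its list (95% exact interval 71.5 to 100%), compared with 65.5% of autosomal replicated regions. The median rank was at 59.8% of the list in replicate 1 and 17.8% in replicate 2, while the medians of autosomal replicated regions were 37.9% and 25.3%. In the worst 10% of the replicate 1 list were 4 of the 11 (36.4%, against 6.0% on the autosomes), and in that of replicate 2 was 1 (9.09%, against 3.20%). On the Skap2 side the rank was better in replicate 2 in 3 of 5 regions, and on the Evx1 side in 11 of 15. Their intervals (14.7 to 94.7% and 44.9 to 92.2%) contain the autosomal share. Across the 31 regions Spearman's rho between scores was 0.510, against 0.559 across the other autosomal regions. This is a description over regions that share their libraries.

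**Figure D4:**
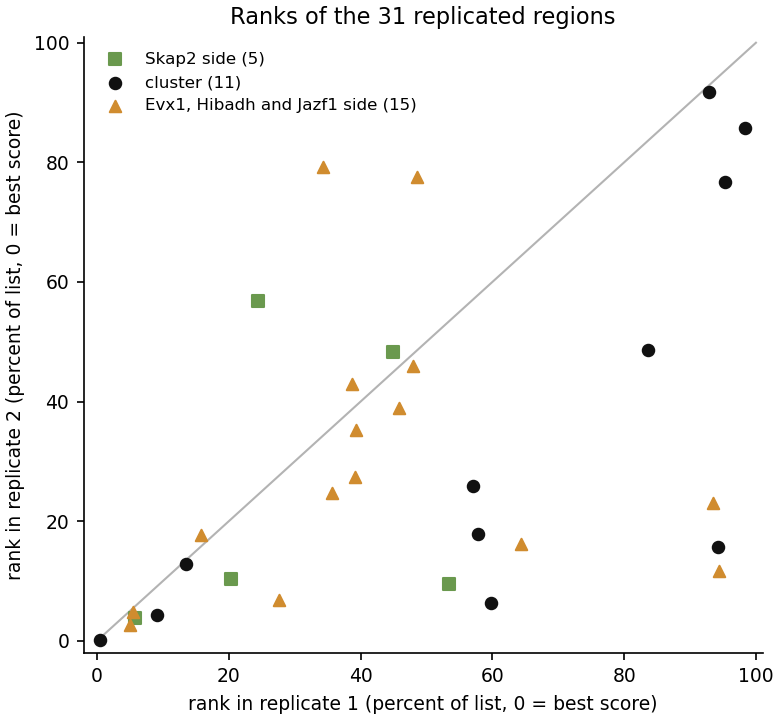
Each symbol is 1 of the 31 replicated regions, with its rank in replicate 1 on the horizontal axis and in replicate 2 on the vertical axis, both as percent of the list with 0 as the best score. The 11 circles of the cluster all lie below the line of equal rank, and the 3 farthest from it have ranks of 57.8 to 94.3% in replicate 1 and of 6.36 to 17.8% in replicate 2.

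On the Skap2 side, all 5 replicate 1 peaks were replicated (95% exact interval 47.8 to 100%), against 69.8% over the autosomes. Of the replicate 2 peaks there, 5 of 6 were replicated (83.3%, 35.9 to 99.6%), against 42.6%. Both intervals contain the autosomal share. The 5 replicated regions in 280 kb were 4.35 times the autosomal density (95% exact interval 1.41 to 10.2), and 5.06% of 8550 autosomal tiles of this length held as many. With either library alone the excess was smaller and its interval included 1: 3.03 in replicate 1 (0.985 to 7.08, 9.53% of tiles) and 2.14 in replicate 2 (0.787 to 4.67, 15.7% of tiles). The best region, 52003426 to 52004903, is also the one nearest the cluster, with scores of 289 (rank 857) and 475 (rank 975). Farther out, 51882661 to 51883669 scored 145 (rank 2997) and 274 (rank 2589). The region from 51831046 to 51832190 was near the middle of the replicate 1 list (77.7, rank 7891) and strong in replicate 2 (290, rank 2373). A close pair lies at the outer end, 51807410 to 51808322 with 87.0 and 89.8, and 51809512 to 51810650 with 129 and 78.9. The peak in replicate 2 alone was at 51987142 to 51987479 (score 74.7).

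The side of Evx1, Hibadh and Jazf1 held 23 peaks in replicate 1, 35 in replicate 2 and 15 replicated regions in 770 kb. Replicated regions were 4.75 times the autosomal density (95% exact interval 2.66 to 7.84), and 1.52% of 3101 autosomal tiles of this length held as many. For replicate 1 the ratio was 5.07 (3.22 to 7.62, 0.484% of tiles) and for replicate 2 it was 4.55 (3.17 to 6.33, 0.484% of tiles). Per kb this side had 1.09 times the replicated regions of the Skap2 side (0.377 to 3.84), an interval too wide to order the flanks. Of its replicate 1 peaks 65.2% (15 of 23, 42.7 to 83.6%) and of its replicate 2 peaks 48.6% (17 of 35, 31.4 to 66.0%) met a peak of the other list, beside autosomal shares of 69.8% and 42.6%.

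Strong Pitx1 regions on this side stood apart from each other. The best was 52728052 to 52729761, with scores of 312 (rank 743) and 568 (rank 665), second in the window by summed ranks. Close behind was 52320584 to 52321708, with 297 (rank 815) and 430 (rank 1208), whose midpoint lies 91.1 kb past the cluster segment. These 2 and the best region of the Skap2 side ranked at 2.66 to 5.81% of their lists, where 0% is best. The region from 52551021 to 52552553 scored 120 (rank 4084) and 355 (rank 1691). At the outer end, 52970072 to 52970897 scored 168 (rank 2326) and 193 (rank 4416). Nearest to the cluster was 52240709 to 52241900, 11.3 kb past its edge, with 104 in replicate 1 and 60.4 in replicate 2.

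A group of 6 replicated regions lay between 52728052 and 52791786. Apart from the best region named above it had 52744987 to 52746000 (scores 83.4 and 93.5), 52747024 to 52747833 (82.9 and 61.2) and 52751891 to 52752792 (95.6 and 141). A neighbouring pair, 52787291 to 52789421 (95.3 and 116) and 52789644 to 52791786 (68.7 and 204), was made of wide replicate 1 peaks, of 2131 and 2143 bp. The other regions of this side were spread out. In replicate 1, 52393059 to 52393904 (52.4 and 253) and 52875117 to 52876147 (52.9 and 160) scored near the lower limit, yet in replicate 2 they ranked 2909 and 5758. Of similar rank in the lists were 52843093 to 52844715 (86.3 and 107), 52917340 to 52918195 (96.3 and 98.7) and 52937244 to 52938547 (102 and 152).

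Peaks of the Evx1 side that were called in 1 list only were mostly weak. The 8 of replicate 1 had a median score of 57.5. The best 3 of them were 52368373 to 52369659 (122, rank 3967), 52801883 to 52802952 (70.2) and 52489461 to 52490646 (65.3). The 18 of replicate 2 had a median of 65.7, and 4 of them (22.2%, 6.41 to 47.6%) were in the better 50% of the list, an interval that contains the autosomal 31.7%. The best 3 were 52774600 to 52775247 (214, rank 3763), 52426573 to 52427185 (147) and 52591952 to 52592550 (108). Closest to the cluster was 52256001 to 52256384 (83.5). So the cluster's unpartnered replicate 2 peaks ranked higher in their list than those of this flank, with median ranks at 34.0% and 71.7% of the list.

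Neighbouring replicated regions in the cluster had midpoints a median of 4.76 kb apart, against 89.2 kb over the autosomes, and 6 of its 10 distances were under 10 kb (60.0%, against 12.6%). With peaks under 1 kb apart merged, the medians were 11.9 kb in the cluster and 94.6 kb over the autosomes. On the Skap2 side the median was 36.5 kb and on the Evx1 side 34.3 kb. In replicate 2 alone, 27 of 30 distances in the cluster were under 10 kb, against 23.7% of that list's distances over the autosomes. The median in replicate 2 was 2.91 kb in the cluster, against 38.3 kb over the autosomes. Toward Skap2, 103 kb held no peak of either list, from 52004904 to 52108227, a stretch that runs into the cluster segment. Its length was at the 78.1 percentile of 28703 such autosomal stretches. The longest in the window was of nearly the same length, from 51883670 to 51987141. Just outside the window, the nearest peaks were a replicate 2 peak 2.90 kb before it (score 61.9) and a replicate 2 peak 67.2 kb after it (score 58.2). The last members inside were 7.87 and 29.5 kb from those edges in replicate 1.

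The HoxA window also stood above most of its surroundings on chromosome 6. Cut into bins of 200 kb, its 6 bins held 1 to 10 replicated regions (median 5), and the 50 bins over 5 Mb on each side held 0 to 12 (median 1). No bin of the window was empty of replicated regions, and 24 of the 50 outside were. The medians inside and outside were 7 and 1 for replicate 1 peaks, and 10 and 2 for replicate 2 peaks. The bin from 52000001 to 52200000, which takes in most of the cluster segment, had 11 replicate 1 peaks, 27 replicate 2 peaks and 10 replicated regions. The bin from 51000001 to 51200000, with its centre 1055 kb before the cluster's centre, had 13, 23 and 12. It was above the cluster's bin in replicate 1 and in replicated regions, and below it in replicate 2.

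**Figure D5:**
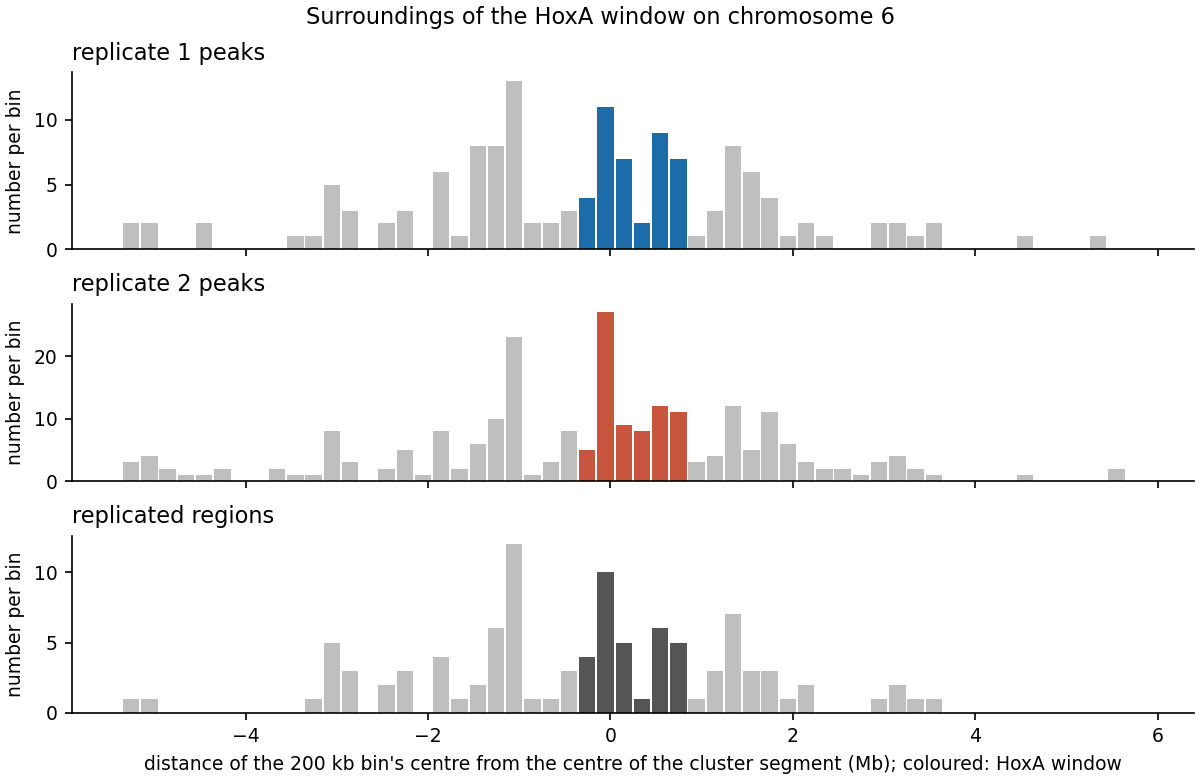
Bars give the number of replicate 1 peaks, replicate 2 peaks and replicated regions in bins of 200 kb, by the distance of the bin's centre from the centre of the cluster segment in Mb, with the 6 bins of the HoxA window coloured. The bin at the cluster has 27 replicate 2 peaks, the most of the 56 bins, and the tall grey bar before the window has 23.

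A further deposited list gives 1 bp positions without scores. In the window it has 34 positions, 5 on the Skap2 side, 12 in the cluster and 17 on the Evx1 side. All 31 replicated regions of the window hold at least 1, but so do 10243 of the 10274 in the genome. Holding a position is therefore not particular to this window. Each of the 34 replicate 2 peaks with a replicate 1 partner holds a position (47.2% of 72, 35.3 to 59.3%), against 42.4% of autosomal replicate 2 peaks. No other replicate 2 peak of the window holds one. For replicate 2 this share therefore repeats the overlap share and is not a separate readout. Of the replicate 1 peaks 29 of 40 do (72.5%, 56.1 to 85.4%), against 69.2%. The strongest region, at 52175380, holds 1. In the cluster 9 of 12 replicate 1 peaks hold a position, and 2 of those that do not belong to the replicated regions at 52181639 and 52208091.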

How the data were processed

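Pitx1 ChIP-seq peak lists of 2 libraries were used, and the 2 input libraries had no list used here. The submitters' processing notes name the build mm9, bedtools 2.16.2, MACS 1.4.2, Bowtie 0.12.8 and CASAVA 1.8.2 and 1.7, without roles. Peaks carry MACS names numbered afresh in each deposited list, so they were called per library. No header defines the deposited score per peak, which was taken as the caller's own value. It was used to rank peaks within a list. Caller settings and the origin of the deposited 1 bp positions were not given in the sources used here.

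Fixation took 30 minutes in 1% formaldehyde, and each ChIP used 400 μg of chromatin of 200 to 600 bp, per the labels' protocols.

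Coordinates are mm9, counted from 1. Overlapping peaks were joined into replicated regions. Densities use autosome lengths up to the last peak, without the window. Count ratios carry exact conditional intervals and shares carry exact Clopper-Pearson intervals, at 95%. No significance test was run, because 1 locus in 2 libraries gives no replicated contrast. The overlap, ratio and tile counts were tested on simulated lists. Members and lists were chosen with earlier results of these data known. All replicated regions and all cluster peaks are named, with the best 3 unpartnered peaks of each list on a flank. The promoter motif search, the merging of peaks under 1 kb apart and the shifted tiles were added after seeing the data. The other alternatives were stricter or equal lists, other overlap definitions, other segment edges, chromosome 6 as background and each library alone. Computation used scipy 1.17.1, pandas 2.3.3 and numpy 2.4.6 in Python 3.11.15, with matplotlib 3.10.9 for plots.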

Additional observations from a re-analysis of the deposited data

How the results depend on the processing

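No paired analysis was possible because no peak list of the input libraries was used here, so there was no second group to pair with the Pitx1 lists. The ratios of density to the autosomes stayed above 1 in all 3 segments under every alternative run. For replicated regions of the cluster they ranged from 9.11 to 18.8. With each library left out in turn, all peaks of the other were counted and the ratio ranged from 13.6 to 20.7 in the cluster, from 2.14 to 3.03 on the Skap2 side, from 4.55 to 5.07 on the Evx1 side and from 5.66 to 6.0 in the window. Requiring reciprocal overlap of 50% lowered the replicated share in the window to 55.0% in replicate 1 and 30.6% in replicate 2. Under the same rule the autosomal shares were 57.7% and 34.0%. Within the cluster, midpoints within 250 bp gave 58.3% in replicate 1, against 64.9% on the autosomes. The best 50% of each list gave 100% in replicate 1 (3 peaks), against 74.6%, and 13.6% in replicate 2, against 44.9%. The replicate 2 share was limited by the 3 replicate 1 peaks left in the cluster, all of which were met. Merging peaks under 1 kb apart made the median distance in the cluster 11.9 kb, by construction, and left 8 replicated regions, as many as in 0.100% of tiles. Of 74 alternative values, 67 stayed within the interval or quartiles of the reported one. This is a weak check, because the alternatives reuse the same peaks and the intervals are wide. For replicated regions of the cluster the interval runs from 8.92 to 32.0, so the drop to 9.11 counts as within it. Unknown read depth limits statements on peaks called in 1 library.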
